A study of Mus musculus with 61 samples.

Results

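The Slitrk family comprises 6 genes, Slitrk1 to Slitrk6, and their transcripts were followed through fractions of the adult mouse brain. A gene was taken as measured where a probe carried a RefSeq accession of that gene, and where a gene had several such probes the one of highest mean signal was to be used. By this rule 4 of the 6 genes were measured, each with 1 probe: Slitrk2, Slitrk3, Slitrk4 and Slitrk6. No probe was named for Slitrk1 or Slitrk5, and both genes were not analysed here. The 4 genes are among 16358 genes with a named probe. The material was whole brain of 6 male C57BL/6J mice, 8 weeks old, with no treatment or genetic alteration in the labels. Each brain was cut in 1 direction into fractions of 200 slices of 5 µm, so that a fraction is 1 mm wide, and total RNA of each of the 61 fractions was hybridised in 1 colour (Cy3) to 1 Agilent whole mouse genome array. Mice S (9 fractions) and So (10) were cut sagittally from left to right, mice C (13) and Co (16) coronally from posterior to anterior, and mice H (6) and Ho (7) horizontally from dorsal to ventral, with So, Co and Ho cut slightly obliquely. A fraction of 1 mouse has a partner at a like position in the other mouse of the plane for 56 fractions, which gives 28 pairs, and 5 fractions (So1, Co1, Co13, Co16 and Ho1) have none. A plane thus rests on 2 mice, and 1 array was made of each fraction.

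Slitrk proteins span the membrane once. Outside the cell they carry leucine-rich repeats like those of the Slit guidance proteins, and most members have an intracellular part that resembles Trk neurotrophin receptors, from which the name derives. They sit mainly on the postsynaptic side and bind receptor tyrosine phosphatases of the LAR type (Ptprd, Ptprs and Ptprf) on the axon, and through this contact they promote the formation of synapses. Slitrk3 is known for inhibitory synapses and its binding to Ptprd, Slitrk2 mainly for excitatory synapses, Slitrk6 for the development of the inner ear, and Slitrk1 and Slitrk5 for work on tics and compulsive behaviour. In the RefSeq gene table (GRCm38.p6) Slitrk1, Slitrk6 and Slitrk5 follow each other in this order on chromosome 14, Slitrk4 and Slitrk2 are on chromosome X, and Slitrk3 is on chromosome 3.

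The letters before the transcript start are shown for Slitrk3 and Slitrk6, the members whose level varied along the brain. The windows hold the 250 bases upstream of a start that RefSeq annotates (GRCm38.p6, minus strand for both genes, written 5′ to 3′ in the direction of transcription). They lie at chr3:73057067-73057316 for Slitrk3 and at chr14:110755150-110755399 for Slitrk6. Capitals mark matches on either strand to the E-box, whose letters are CANNTG. They also mark matches to the box of the letters CCAAT.
Slitrk3: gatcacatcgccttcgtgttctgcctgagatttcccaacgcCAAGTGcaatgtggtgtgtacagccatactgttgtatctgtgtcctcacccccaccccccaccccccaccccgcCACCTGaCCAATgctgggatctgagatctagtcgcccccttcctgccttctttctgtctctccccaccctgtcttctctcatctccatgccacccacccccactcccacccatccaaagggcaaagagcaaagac
Slitrk6: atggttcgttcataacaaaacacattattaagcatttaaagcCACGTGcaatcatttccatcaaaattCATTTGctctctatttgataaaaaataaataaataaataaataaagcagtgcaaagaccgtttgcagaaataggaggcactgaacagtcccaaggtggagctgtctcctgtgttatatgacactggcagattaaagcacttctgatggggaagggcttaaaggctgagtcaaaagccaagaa

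Both windows held 2 E-boxes, a motif found in 66.2% of the 32851 upstream windows of this length in the table. The Slitrk3 window also held 1 CCAAT box (33.8% of all windows). Of the other motifs searched, on both strands, neither window held TATAAA, found in 12.4% of all windows. Neither held the GC box, written GGGCGG and found in 32.7% of them. Neither held CTTTGA, the core bound by proteins of the LEF family, found in 13.8% of them. The share of G and C was 57.6% upstream of Slitrk3 and 37.2% upstream of Slitrk6, against a median of 52.4% over all windows. Only 7.31% of the windows had a lower share than that of Slitrk6. The other members with an entry had 40.4% (Slitrk1), 74.8% (Slitrk5), and 58.0% and 61.6% (both starts of Slitrk2).

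Levels are given as log2 of the background-subtracted intensity minus the 75th percentile of the same array, so that 0 is the level of that percentile. Levels of different probes are not set against each other, because each probe has its own affinity. The 75th percentile itself lay between 739.7 and 1971 intensity units over the arrays, and 57.9% to 73.1% of the probes were well above background. The probes of Slitrk3, Slitrk4 and Slitrk6 were well above background in all 61 fractions. That of Slitrk2 was dim, with a mean intensity of 43.8 units, and was well above background in 59 fractions, the exceptions being C1 and C4. No spot of a member was flagged as an outlier or saturated. In bulk RNA of a fraction, fewer cells of a type and less RNA per cell cannot be told apart, and a fraction mixes several brain regions.

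Slitrk3 and Slitrk6 varied with position along the brain. In a moderated F test over the 28 pairs (limma, Benjamini-Hochberg adjustment over 36573 probes), 2 of the 4 members varied at an adjusted p under 0.05, against 61.3% of all probes tested, so that the share called is no higher than the background. Slitrk6 had F = 17.8 (adjusted p = 1.27e-10) and Slitrk3 had F = 12.2 (adjusted p = 9.8e-09). For Slitrk4 F was 1.41 (adjusted p = 0.234) and for Slitrk2 0.849 (adjusted p = 0.727). The distance between the lowest and the highest fraction was 4.97 for Slitrk6, 1.71 for Slitrk3, 1.10 for Slitrk4 and 2.00 for Slitrk2 on the log2 scale.

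**Figure D1:**
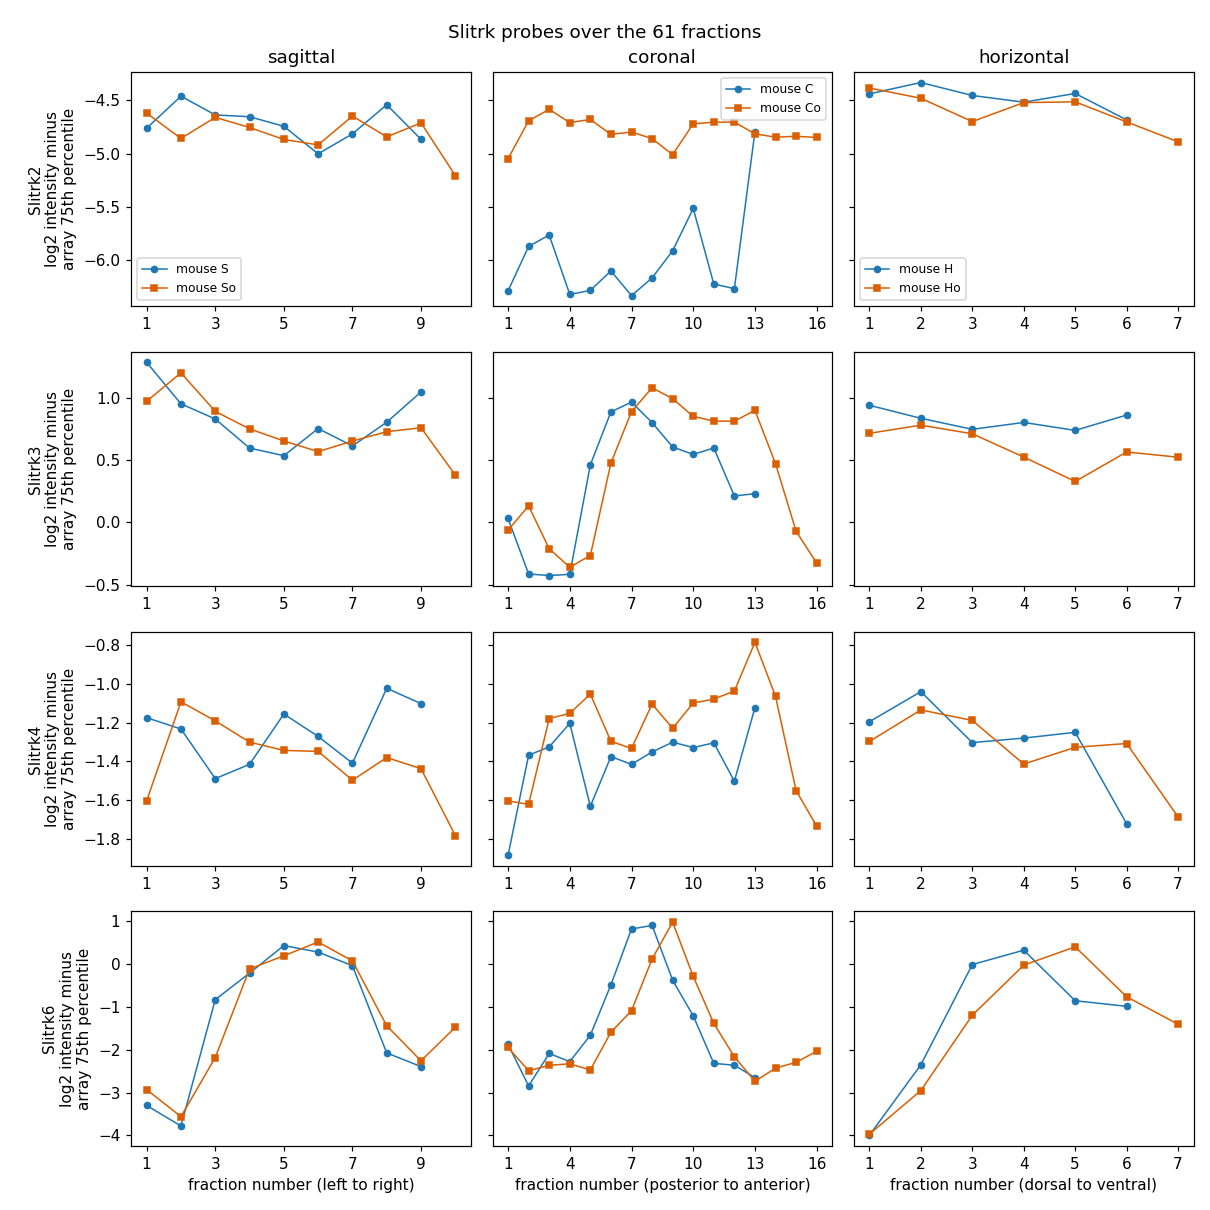
Level of each measured Slitrk probe (rows; log2 intensity minus the 75th percentile of the array) against fraction number in the sagittal, coronal and horizontal series (columns), with 1 line per mouse and 1 point per array. Slitrk3 is at its lowest in the caudal coronal fractions, Slitrk6 has 1 peak in each series, Slitrk4 stays between -1.88 and -0.79, and Slitrk2 lies below -5.5 in C1 to C12.

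Slitrk3, the member tied to inhibitory synapses, was low at the back of the brain, high in its middle and lower again at the front. In mouse C it was at 0.03 in C1, at -0.42, -0.43 and -0.42 in C2 to C4 and at 0.46 in C5, and it reached 0.96 in C7 before it declined to 0.23 in C13. In mouse Co it was at -0.21, -0.36 and -0.27 in Co3 to Co5 and at 0.48 in Co6, reached 1.08 in Co8, and was at 0.90 in Co13 and -0.33 in Co16. The step between C4 and C5 and between Co5 and Co6 was thus seen at partner fractions in both mice. The fractions C2 to C4 and Co3 to Co5 are those in which the cerebellar markers Pcp2, Cbln3 and Gabra6 had their coronal peaks (C3, and Co4 or Co5).

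The 8 rostral fractions of Slitrk3 (pairs c10 to c13, numbered from the back) lay between -0.07 and 0.81 with a median of 0.51. The 8 caudal fractions (c1 to c4) lay between -0.43 and 0.13 with a median of -0.31, and the groups overlapped. The rostral fractions were higher by 0.69 (SE 0.08; 1.62-fold; adjusted p = 2.03e-08), with 0.70 in mouse C and 0.68 in mouse Co. Of all probes 20.2% were called higher and 27.5% lower in this comparison. When the slide entered as a fixed term the difference was 0.51 and the call was lost (adjusted p = 0.284). The 10 middle fractions (c5 to c9) lay between 0.46 and 1.08 with a median of 0.87, above those of both ends (median 0.08, -0.43 to 0.81, n = 16) by 0.70 (SE 0.07; 1.62-fold; adjusted p = 7.9e-10). This call was made of 15.3% of all probes in the higher direction and of 19.9% in the lower.

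From side to side Slitrk3 was higher at the edges. In mouse S the level was 1.28 in S1 and 1.05 in S9, with its lowest value of 0.53 in S5, and in mouse So it was 1.20 in So2 and 0.57 in So6. The exception was So10 at the right edge, which had the lowest value of its series, 0.38, where its partner S9 was at 1.05. The 6 midline fractions (s4 to s6) were lower than the 8 lateral ones (s1, s2, s8 and s9) by 0.29 (SE 0.09; 1.22-fold; adjusted p = 0.0188), with medians of 0.62 and 0.92 and overlapping groups. Of all probes 9.01% were called lower and 10.6% higher at the midline, 19.6% together. The call was lost without S9 or without So7 (adjusted p of up to 0.0804) and without mouse S, where the difference was -0.18 (adjusted p = 0.506). Over the sagittal pairs alone the F test did not pass (F = 2.93, adjusted p = 0.262).

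Along the horizontal series the level of Slitrk3 stayed within 0.20 in mouse H (0.74 to 0.94, median 0.82) and within 0.45 in mouse Ho (0.33 to 0.78, median 0.56). The ventral fractions differed from the dorsal ones by -0.12 (SE 0.09; adjusted p = 0.532; 95% interval -0.31 to 0.07). The order of the 6 pairs had no gap between neighbours larger than the SD between partners of 0.20. In the coronal order 4 of 12 gaps were larger than the SD between partners of 0.13.

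Slitrk6 formed a narrow peak in the middle of the brain in each plane. In the coronal series it was at -0.48 in C6, 0.82 in C7, 0.90 in C8 and -0.38 in C9 of mouse C, and at 0.12 in Co8, 0.98 in Co9 and -0.29 in Co10 of mouse Co. The 10 middle fractions lay between -1.66 and 0.98 (median -0.33) and the 16 fractions of both ends between -2.84 and -1.21 (median -2.32). The difference was 1.95 (SE 0.17; 3.87-fold; adjusted p = 1.43e-10), against 15.3% of all probes called higher and 19.9% lower. The groups overlapped, since C5 (-1.66) and Co6 (-1.59) of the middle lay below C10 (-1.21) and Co11 (-1.38) of the front. The ends did not differ by a called amount (0.24, SE 0.21; adjusted p = 0.379; 95% interval -0.19 to 0.67).

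At the midline the 6 fractions of Slitrk6 lay between -0.21 and 0.51 (median 0.24). The 8 lateral fractions lay between -3.78 and -1.47 (median -2.33). The midline fractions were higher by 2.84 (SE 0.23; 7.16-fold; adjusted p = 1.25e-10), with 3.05 in mouse S and 2.63 in mouse So. At the midline 10.6% of all probes were called higher and 9.01% lower. The right side was above the left by 0.56 (SE 0.21; adjusted p = 0.495), with 0.97 in mouse S and 0.14 in mouse So, and no member was called in this comparison, in which limma called 0.112% of all probes higher and 0.041% lower. Before adjustment 2 of the 4 members had a 95% interval without 0, Slitrk6 above it (0.12 to 0.99) and Slitrk3 below it (-0.35 to -0.01).

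From dorsal to ventral, Slitrk6 ran from -3.99 in H1 and -2.35 in H2 to -0.01 in H3 and 0.32 in H4, and was then at -0.86 in H5 and -0.99 in H6. Mouse Ho gave -3.97, -2.95, -1.20, -0.03, 0.40, -0.76 and -1.40 from Ho1 to Ho7. The 6 ventral fractions were higher than the 6 dorsal ones by 1.21 (SE 0.25; 2.31-fold; adjusted p = 7.56e-04), against 7.38% of all probes called higher and 5.2% lower. Without mouse H the difference was 0.80 and was not called (adjusted p = 0.253), and it was 0.87 when the slide entered as a fixed term (adjusted p = 0.462). The profile is a peak and no slope, since the most ventral fractions were below H4 and Ho5.

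The level of Slitrk4 spanned 1.10 on the log2 scale. The median of its level in a series lay between -1.36 (mouse So) and -1.17 (mouse Co), and the highest value of all was -0.79 in Co13, a fraction in the front part of the brain. No comparison of positions called Slitrk4 in the fit over the 28 pairs, and several alternatives did. The differences were 0.10 (SE 0.09) rostral minus caudal, -0.02 (SE 0.07) middle minus both ends, -0.08 (SE 0.10) midline minus lateral, -0.08 (SE 0.09) right minus left and -0.22 (SE 0.10) ventral minus dorsal. Scaled to the median of each array, which moved the median rostral difference of all probes from -0.10 to 0.05, Slitrk4 was higher rostrally by 0.25 (adjusted p = 0.0247). The authors' normalized values gave 0.25 too (adjusted p = 0.0245), and fractions paired by their own number gave 0.26 (adjusted p = 0.0269). Ventral minus dorsal, the same -0.22 was called with the scan day as a fixed term (adjusted p = 0.0263) and in the horizontal arrays alone (adjusted p = 0.0221). The variation over the pairs passed the test for Slitrk4 when the arrays were scaled to their median (adjusted p = 0.046), with the authors' normalized values (adjusted p = 0.0455) and without S9 (adjusted p = 0.0487). It also passed with the slide as a fixed (adjusted p = 0.021) or random term (adjusted p = 0.0193) and with the scan day as a fixed term (adjusted p = 0.00185). Within the horizontal arrays alone it passed too (F = 12.2, adjusted p = 0.027), the most ventral pair H6 and Ho7 being at -1.72 and -1.69.

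The low values of Slitrk4 fell in fractions rich in blood transcripts. Its lowest fraction was S3, So10, C1, Co16, H6 and Ho7 in the 6 series. In 5 of the 6 series this was the fraction with the highest summed level of Hbb-bt, Hba-a1 and Alas2, a coincidence found in 0.536% of all probes tested and looked for after the values of Slitrk4 were seen. In the remaining series the blood list was highest in Co1 (4.93) and nearly as high in Co16 (4.89). The blood list ranged from 2.03 to 5.75 over the 61 fractions, all 3 genes were well above background throughout, and within each series its correlation with Slitrk4 lay between -0.84 and -0.45. Slitrk2 had its lowest value at the blood maximum in 4 series, Slitrk3 in 1 and Slitrk6 in 0. The lowest fractions of Slitrk4 were all the first or last of their series, except S3. The astrocytic gene Gfap had an r of -0.66 with Slitrk4 (-0.84 to -0.63 within the series). Its peaks were S3, So8, C1, Co1, H6 and Ho7. Aqp4 had -0.33 and Aldh1l1 -0.24. The neuronal list had an r of 0.31 to 0.83 with Slitrk4 within the series. In mice C, H and Ho it was lowest in C1, H6 and Ho7. The part of blood, cell types or end position in the values of Slitrk4 was not tested.

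Slitrk2 was lower in 12 of the 13 fractions of mouse C than in every other fraction. In C1 to C12 it lay between -6.33 and -5.51 with a median of -6.19. In the other 49 fractions it lay between -5.20 and -4.33 with a median of -4.71, without overlap. The mean difference was 1.37 on the log2 scale, or 2.59-fold. Of all probes tested, 0.67% had C1 to C12 below every other fraction and 1.28% had them above every other fraction. C13, the most anterior fraction of the same mouse, was at -4.79, within the range of the other mice, and its partner Co15 was at -4.84. C1 to C12 were scanned on a day of their own, and C13 shared its slide and its scan day with fractions of mouse H. In C1 to C12 the intensity of the probe was 14.9 to 28.7 units, well above background in 10 of 12 fractions. The part of slide and scan day in this difference was not tested.

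Between partner fractions, Slitrk2 was higher in mouse Co than in mouse C by 1.22 (SE 0.09; adjusted p = 8.49e-12), whereas So minus S was -0.11 (SE 0.11; adjusted p = 0.495) and Ho minus H was -0.16 (SE 0.13; adjusted p = 0.6). Of all probes 53.4% were called in the first, 29.9% in the second and 5.52% in the third of these comparisons. The difference between mice was itself unlike between the planes for Slitrk2, Slitrk3 and Slitrk4, as for 55.4% of all probes. Jointly over the planes, the mice differed for Slitrk2 (F = 60.6, adjusted p = 1.39e-10), Slitrk3 (F = 6.45, adjusted p = 0.00419) and Slitrk4 (F = 3.90, adjusted p = 0.0327), and not by a called amount for Slitrk6 (F = 0.996, adjusted p = 0.469). This is 3 of 4 members against 63.1% of all probes. The differences of Slitrk3 were 0.12 (Co minus C), -0.09 (So minus S) and -0.25 (Ho minus H), and those of Slitrk4 were 0.18, -0.12 and -0.04. With the slide as a random block only Slitrk2 was called, and the call of Slitrk4 was lost when any of 12 of the arrays was left out, 6 from each coronal mouse (C1, C5, C7, C10, C11, C12, Co2, Co6, Co8, Co11, Co12 and Co14).

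**Figure D2:**
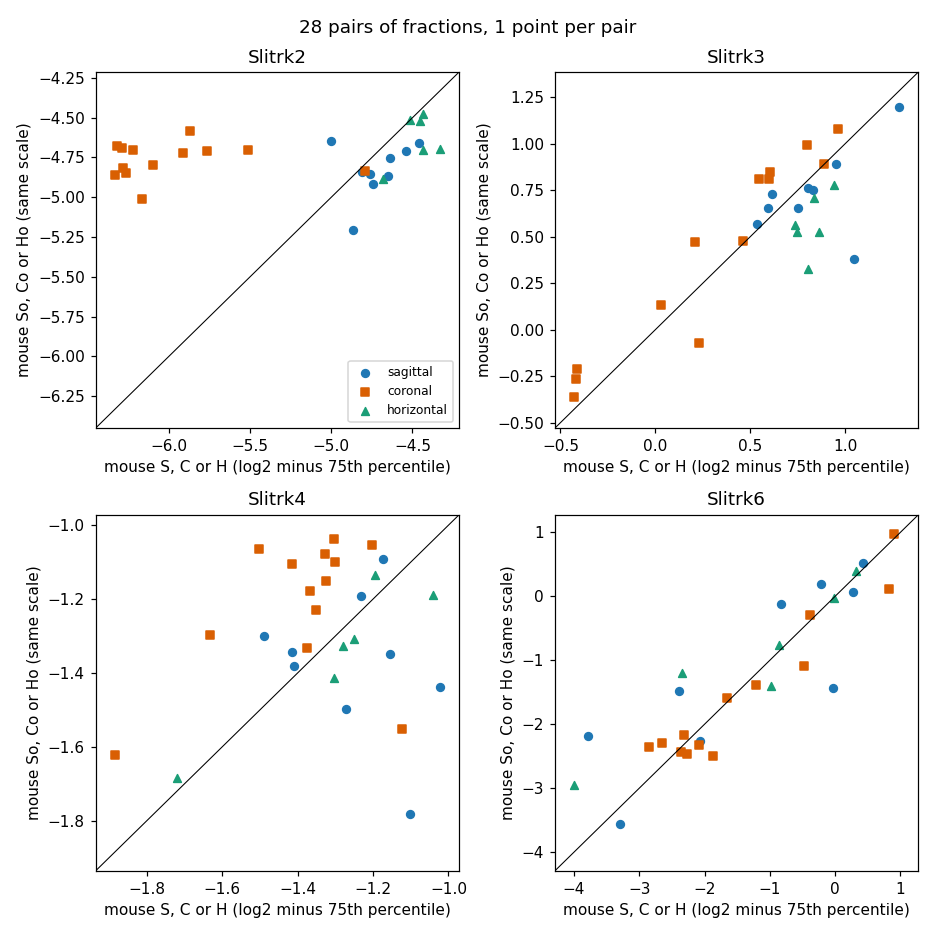
Level in the fraction of mouse So, Co or Ho (vertical axis) against that of its partner in mouse S, C or H (horizontal axis) for the 28 pairs, 1 panel per member, on the scale of log2 intensity minus the 75th percentile. The line marks equal levels. Coronal points of Slitrk2 lie far left of the line except 1, the pair of C13 and Co15, while Slitrk6 follows the line from about -4 to 1.

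Along the axes Slitrk2 showed no called difference. Its values were 0.13 (SE 0.31) rostral minus caudal, -0.20 (SE 0.25) middle minus both ends, -0.05 (SE 0.33) midline minus lateral and -0.14 (SE 0.36) ventral minus dorsal, with 95% intervals that reached from -0.86 at the lowest to 0.76 at the highest end. The spread between partners in this fit holds the difference between mice C and Co. Without mouse Co each coronal pair held 1 array, of mouse C, and F over the pairs of all planes was 29.5. That F also holds the distance of C1 to C12 from the sagittal and horizontal fractions, so that it does not measure position alone. Mouse C by itself gave 0.36 rostral minus caudal. Its rostral group includes C13 at -4.79, scanned on another day than C1 to C12 (-6.33 to -5.51). With C1 to C12 left out, an alternative added after the values were seen, the F test over the pairs gave adjusted p = 0.189, and rostral minus caudal turned to -0.10 (adjusted p = 0.473). Outside mouse C its 48 values had an SD of 0.18.

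Members changed unequally along the brain. The difference between the changes of each pair of members, formed within each array, was tested by exact permutation of the fractions within each mouse (two-sided). This was done for 6 pairs of members in 5 comparisons, 30 in all, of which 9 had a Benjamini-Hochberg adjusted p under 0.05. From midline to lateral, Slitrk6 exceeded Slitrk3 by 3.13, Slitrk4 by 2.92 and Slitrk2 by 2.89 on the log2 scale, each with an exact p of 8.16e-04, the smallest the 1225 rearrangements allow, and an adjusted p of 0.00306. Between the middle and both ends of the brain, Slitrk6 exceeded Slitrk3 by 1.26 (exact p = 4.59e-05, adjusted p = 4.59e-04). Slitrk3 in turn exceeded Slitrk4 there by 0.71 (exact p = 2.46e-04, adjusted p = 0.00147) and Slitrk2 by 0.90 (exact p = 1.85e-04, adjusted p = 0.00139). Rostral minus caudal, Slitrk3 exceeded Slitrk4 by 0.59 (exact p = 0.0106, adjusted p = 0.0354). None of the 6 differences passed ventral minus dorsal, where Slitrk6 exceeded the others by 1.33 to 1.42 (smallest exact p = 0.115, adjusted p = 0.244), or right minus left (smallest exact p = 0.24). Neighbouring fractions are not independent, which these p-values do not take into account.

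**Figure D3:**
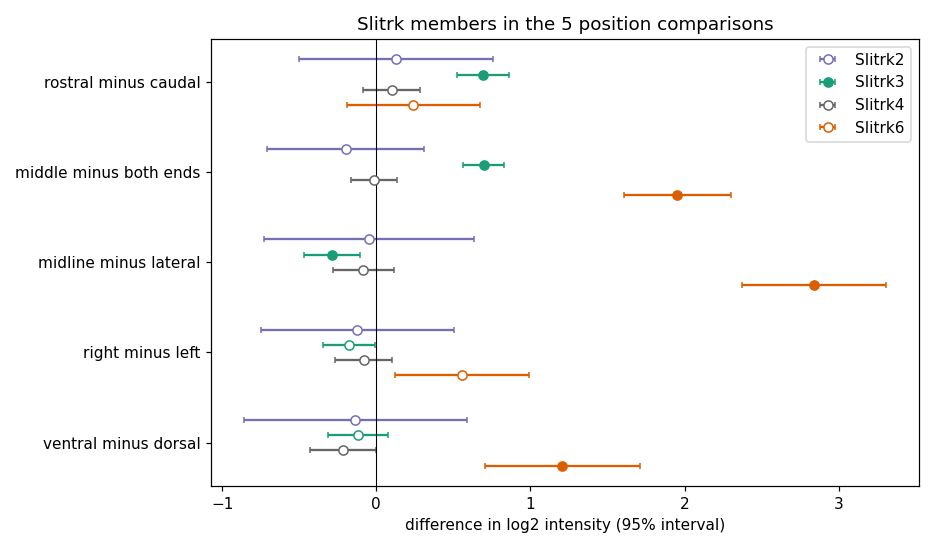
Difference in log2 intensity (horizontal axis) of the 4 members in the 5 position comparisons (vertical axis), with 95% intervals from the fit over 28 pairs. Filled points have an adjusted p under 0.05. Slitrk6 is filled in the middle, midline and ventral comparisons and Slitrk3 in the rostral, middle and midline ones, the last with opposite sign to Slitrk6.

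The peaks of Slitrk3 and Slitrk6 were at partner positions in both mice of every plane. For Slitrk3 these were S1 and So2, C7 and Co8, and H1 and Ho2, and for Slitrk6 S5 and So6, C8 and Co9, and H4 and Ho5. Several of these maxima stood little above the next fraction. For Slitrk3 the margin was 0.08 in H and 0.07 in Ho, against an SD between partners of 0.20, and the next fraction in H was H6, the most ventral. The F test over the horizontal arrays alone did not call Slitrk3 (F = 0.643, adjusted p = 0.823). In the coronal series its margin was 0.08 in C and 0.09 in Co, against an SD between partners of 0.13. For Slitrk6 the margin was 0.08 in C, where the next fraction was C7, and 0.86 in Co, against an SD between partners of 0.26. It was 0.15 in S and 0.32 in So, against an SD of 0.59. In the horizontal series it was 0.34 in H and 0.43 in Ho, against an SD of 0.47. Of all probes tested, 17.1% had partner peaks in the sagittal, 18.9% in the coronal and 24.4% in the horizontal plane, and 1.24% in all 3 planes. Neither Slitrk2 nor Slitrk4 had partner peaks in any plane. The highest fractions of Slitrk4 were S8, So2, C13, Co13, H2 and Ho2, and those of Slitrk2 were S2, So1, C13, Co3, H2 and Ho1.

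The likeness between members was low over all fractions and changed with the cutting direction. Pearson's r over the 61 fractions lay between -0.14 (Slitrk4 with Slitrk6) and 0.30 (Slitrk2 with Slitrk4), given as a description over fractions that share 6 brains. Slitrk3 and Slitrk6 had an r of 0.18 in all, of 0.76 and 0.63 in the coronal series C and Co, and of -0.84 in S, -0.71 in So, -0.80 in H and -0.81 in Ho. Both genes were thus high in the middle coronal fractions, and in the other planes they were high in different ones. Slitrk2 and Slitrk6 had a negative r in each of the 6 series (-0.48 to -0.16), and Slitrk2 and Slitrk4 a positive one (0.04 to 0.97).

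The profiles were set against the summed levels of marker lists of brain regions and cell types. The 2 measured hippocampal markers, Spink8 and C1ql2, had an r of 0.78 with Slitrk3 over the 61 fractions but from -0.60 to 0.83 within the series. Taken singly, Spink8 had 0.85 and C1ql2 0.43. Neuronal transcripts (Snap25, Syt1 and Rbfox3) gave 0.73 and astrocytic ones (Aldh1l1, Aqp4 and Gfap) -0.66 with Slitrk3, the latter from -0.79 to 0.69 within the series. The genes of a list were unequal in this. Syt1 had 0.81, Rbfox3 0.44 and Snap25 0.10, while Aqp4 had -0.77, Gfap -0.52 and Aldh1l1 -0.25. Rostral minus caudal, Snap25 was at -0.25 (SE 0.06; limma, adjusted p = 0.00113), the direction opposite to that of Slitrk3. The neuronal list ranged from 6.25 to 7.30 and the astrocytic list from 3.00 to 4.42, with all 6 genes well above background in all fractions. Their part in the profile of Slitrk3 was not tested.

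The thalamic markers Prkcd, Lef1 and Tnnt1 had an r of 0.83 with Slitrk6 over all fractions and of 0.77 to 0.93 within the series. Among them Prkcd alone gave 0.68 to 0.95 within the series and Lef1 -0.19 to 0.90. The choroid plexus list (Ttr and Folr1, r of 0.33 to 0.98 within the series) and the hypothalamic list (Hcrt, Pmch, Avp and Oxt, 0.23 to 0.87) also ran with Slitrk6. So did the habenular marker Gpr151, with 0.63 over all fractions and 0.23 to 0.91 within the series. It was well above background in 37 fractions. Its peaks were S5, So5, C7, Co9, H3 and Ho4, each the same as or next to that of Slitrk6. A fraction mixes regions, but the thalamic, choroid plexus and hypothalamic lists did not peak alike. In mouse H the thalamic and choroid plexus lists were highest in H4, as Slitrk6 was. The hypothalamic list was highest in H6 (6.24, against 0.21 in H4), although its coronal peaks, C8 and Co9, were those of Slitrk6. The coronal peaks of the choroid plexus list were C3 and Co4, where Slitrk6 was at -2.09 and -2.33. The part of each region in the profile of Slitrk6 was not tested. For Slitrk4 the largest values were those of the neuronal (0.55) and blood lists (-0.61).

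**Figure D4:**
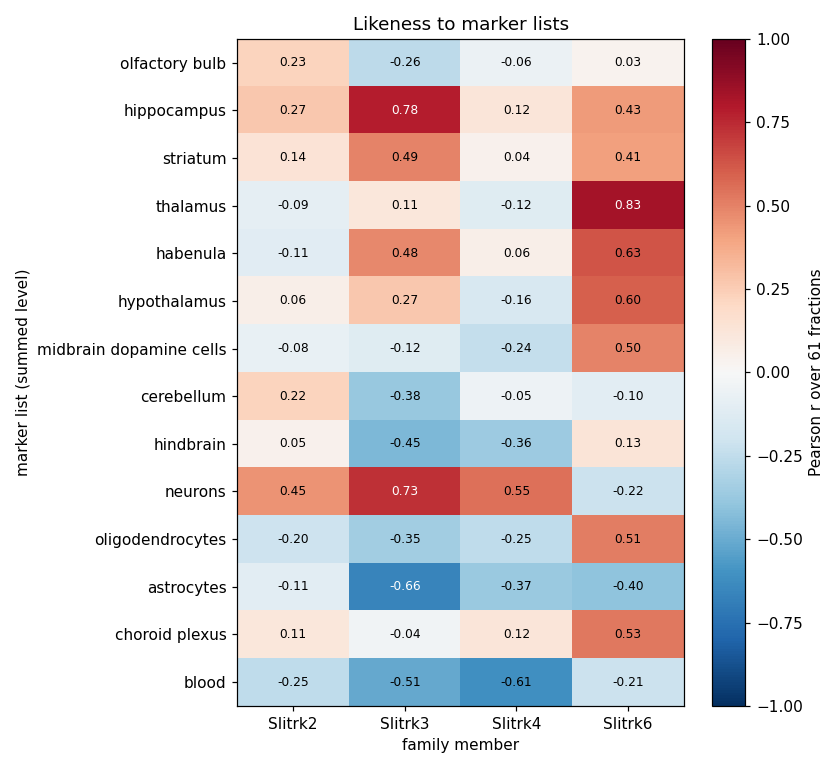
Pearson's r over the 61 fractions between the level of each member (columns) and the summed level of each marker list shown (rows). Not every list is shown. Slitrk3 has 0.78 with the hippocampal and 0.73 with the neuronal list, Slitrk6 has 0.83 with the thalamic list, Slitrk4 has -0.61 with the blood list and Slitrk2 has 0.45 with the neuronal list.

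Among 13012 other genes with a probe well above background on at least 31 arrays, those with the profile most like Slitrk6 were Gbx2 (r = 0.82), Tcf7l2 (0.81) and Rgs16 (0.80). Gbx2 and Tcf7l2 encode transcription factors known from the developing and adult thalamus, and Rgs16 a regulator of G protein signalling. Gbx2 peaked in the same 6 fractions as Slitrk6, and within the series its r lay between 0.69 and 0.98. The genes most like Slitrk3 were Creg2 (0.92), Pde1a (0.92), a calcium-activated phosphodiesterase, and Mal2 (0.92), a protein of membrane traffic, and within the series their lowest r was 0.71, 0.64 and 0.46. Creg2 also had the same peak fractions as Slitrk3.

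For Slitrk4 the closest genes were Clec16a (0.72), Uhrf1bp1l (0.71) and Cers6 (0.71), a ceramide synthase. For Slitrk2 they were Tor1b (0.94), Tbc1d20 (0.93) and Pacc1 (0.93), but without C1 to C12 these values were 0.38, 0.52 and 0.31, and within the series they ranged from -0.28 to 0.83.

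Of the 3 receptor phosphatases that bind Slitrk proteins, only Ptprs was called over the pairs, against 61.3% of all probes. It had F = 6.89 over the pairs (adjusted p = 3.98e-06), and was higher in rostral than in caudal fractions by 0.69 (SE 0.08; adjusted p = 1.94e-08) and in the middle than at both ends by 0.41 (SE 0.07; adjusted p = 1.1e-05). At the midline it was lower by 0.35 (SE 0.09; adjusted p = 0.00424). Its r with Slitrk3 was 0.80 over the 61 fractions and 0.35 to 0.91 within the series. Ptprd, the known partner of Slitrk3, had F = 0.634 (adjusted p = 0.923), with 0.20 (SE 0.14) rostral minus caudal, and Ptprf had F = 1.93 (adjusted p = 0.0641). All 3 phosphatases were well above background in all fractions, and none was called ventral minus dorsal or right minus left.

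All 3 phosphatases differed between mice, against 63.1% of all probes called. Co minus C called 53.4% of all probes and So minus S 29.9%. Mice C and Co shared no slide and no scan day and differed in cutting angle, so that these cannot be told apart. Ptprd was lower in mouse Co than in mouse C by 0.49 (SE 0.06; adjusted p = 3.84e-08), the direction opposite to that of Slitrk2, Ptprf by 0.30 (SE 0.04; adjusted p = 1.65e-06) and Ptprs by 0.23 (SE 0.04; adjusted p = 6.91e-05). In the sagittal plane Ptprf was higher in mouse So than in mouse S by 0.28 (SE 0.05; adjusted p = 1.71e-04) and Ptprd was lower by 0.21 (SE 0.07; adjusted p = 0.0203).

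Over the wider list of synaptic organizers and name-giving families, 35 genes were listed and 30 tested. Of these, 23 varied over the pairs (61.3% of all probes), with a median F of 6.34 against 2.58 for all probes. Rostrally 16 were higher and 2 lower (20.2% and 27.5% of all probes), with a median difference of 0.30 against -0.10. In the middle 14 were higher and 0 lower (15.3% and 19.9%), and at the midline 1 was higher and 12 lower (10.6% and 9.01%). Ventrally 1 was higher and 5 were lower (7.38% and 5.2%), and 0 were called from left to right, where limma called 0.153% of all probes in either direction and 3 of the 30 genes had a 95% interval without 0 before adjustment. Slitrk3 had the direction of most of these genes in the rostral, middle and midline comparisons, and Slitrk6 had the opposite direction at the midline and ventrally.

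Among the leucine-rich and immunoglobulin-type organizers (13 of 15 tested), the largest rostral differences were those of Lrfn2 (1.56, SE 0.08), Il1rap (-1.19, SE 0.10) and Lrrtm1 (0.96, SE 0.10). Il1rap, the accessory receptor protein of interleukin 1 that also binds Ptprd, was the 1 gene of the list higher at the midline (0.89, SE 0.11). In the middle of the brain Lrrtm1 (1.27, SE 0.08), Lrfn2 (1.00, SE 0.07) and Lrrtm2 (0.87, SE 0.10) had the largest differences. Of the neurexins and neuroligins (5 of 6 tested), the 3 neuroligins were higher rostrally, led by Nlgn1 (0.68, SE 0.13), and 0 were lower. Among all probes 20.2% were higher and 27.5% lower there. Of the latrophilins and their FLRT ligands (5 of 6 tested), Adgrl1 (0.58, SE 0.09) and Flrt2 (0.47, SE 0.13) were higher rostrally, and Flrt2 had the largest difference in the middle (0.83, SE 0.11).

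Of the Slit and Trk families that gave Slitrk its name (4 of 5 tested), 3 genes were higher rostrally and 3 in the middle. The shares of all probes called higher were 20.2% and 15.3%. Slit1, a ligand that guides axons, was higher rostrally (1.05, SE 0.10) and in the middle (1.56, SE 0.08), Slit3 rostrally (0.39, SE 0.07) and in the middle (0.65, SE 0.06), and Slit2 in the middle (0.74, SE 0.08) but not by a called amount rostrally (-0.16, SE 0.10; adjusted p = 0.172). At the midline Slit1 was lower by 0.50 (SE 0.11) and Slit3 by 0.49 (SE 0.08). Ntrk2, the receptor of brain-derived neurotrophic factor, was higher rostrally (0.31, SE 0.10) and ventrally (0.42, SE 0.12), with -0.12 (SE 0.08; adjusted p = 0.256) in the middle. Ntrk3, a further Trk receptor that was counted among the organizers and is named here after its values were seen, was lower rostrally (-0.33, SE 0.11; adjusted p = 0.0109).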

How the data were processed

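Fractions were grouped by series and position from their titles. The S fractions, numbered 2 to 10 in the titles, were renumbered 1 to 9, and partners were those the study assigned by correlation of the same arrays. The authors deposited spot intensities from Agilent Feature Extraction (version 9.1 in the submitters' processing notes) after background subtraction, without normalization between arrays, and a table of intensities normalized per array. Here the log2 intensities of 43379 spots gave 1 mean for each of the 41174 probes, from which the array's 75th percentile was subtracted, with flagged spots left out where another spot remained (64 values) and kept otherwise (2235 values). Probes were named through RefSeq accessions (22951 of them). A probe was tested if well above background on at least 1 array (36573 probes). Models used limma 3.58.1 in R 4.3.3 with 28 pairs as groups, 56 arrays, and Benjamini-Hochberg adjustment. The tests were checked on simulated data with independent noise on each array. That check cannot show how the calls fare where fractions of a slide or a brain are alike. A plane has 2 mice and a fraction 1 array. The p-values of the models measure the spread between partner fractions of those mice, pooled over the planes with 28 residual degrees of freedom. Fractions of the same brain or slide enter as if independent, which they are not, so that these p-values can be too small. The number of mice limits the precision. Slides (16) and scan days (5) came from the file headers.

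Members, lists and tests were chosen with earlier results of these data known. The genes given with values are the members, the 3 phosphatases, up to 3 genes a list with the largest called difference, and the 3 genes most like each member. The tests between members and the setting without C1 to C12 were added later. Alternatives were the scaling, background correction, filter, floor of 5 units, moderation, blocks, pairing, threshold and left-out arrays and mice. Each measured member has 1 probe, so that no other probe could be tried. The result of 1 marker list is not reported here.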

Additional observations from a re-analysis of the deposited data

Results flagged for a closer look

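Slitrk2 in So10 stood apart from the other fractions of mouse So. Its level of -5.20 was the lowest of the series and the nearest value was -4.92 in So6, a gap of 0.491 of the whole range, above Dixon's critical value of 0.466 for 10 samples. Both ends of 16 groups, a member in a series of 6 to 10 fractions each, were looked at (32 values), and chance flags about 1 in 20 groups. The longer coronal series were not looked at. So10 was also the lowest fraction of its series for Slitrk3 and Slitrk4 and the highest for the blood list.

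The difference between the oblique and the orthogonal mouse was unlike between the planes for 3 members. The test of that difference (limma) gave F = 58.8 for Slitrk2 (adjusted p = 4.48e-09), F = 9.33 for Slitrk3 (adjusted p = 0.00237) and F = 5.52 for Slitrk4 (adjusted p = 0.0204), against 55.4% of all probes called. Mice H and Ho shared a scan day and lay on different slides. C1 to C12 and all of Co were scanned on different days, and S2 to S9 on another day than So, while S1 shared a slide and a day with So1 and So2. With the slide as a random block the difference between mice was called for Slitrk2 (F = 15.5, adjusted p = 9.52e-05) and not for Slitrk3 (adjusted p = 0.568) or Slitrk4 (adjusted p = 0.869).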

How the results depend on the processing

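Of 139 alternatives for counts, peaks and likeness, 120 stayed within 1.5 times or 1 SD of the value reported and 19 moved. Of 635 alternatives for single members and their differences, 584 kept direction and side of the threshold, 14 lost the call, 16 gained it and 21 changed sign. The cause was not tested in any of these. With the mouse as a block, the pairing of the fractions gave the same counts of called members (2 over the pairs, then 1, 2, 2, 0 and 1 in the comparisons), with 0.69 for Slitrk3 rostral minus caudal (adjusted p = 2.36e-10). The members called over the pairs fell to 1 in the sagittal arrays alone. Rostral minus caudal, 2 members were called with median scaling, with the authors' normalized values and with fractions paired by their own number, and 0 with a fixed slide term, while leaving out a mouse gave 1 to 2. Midline minus lateral, 1 member was called at an adjusted p under 0.01 and with fractions paired by their own number, and leaving out an array or a mouse gave 1 to 2. Ventral minus dorsal, 2 were called with the scan day as a fixed block and in the horizontal arrays alone, 0 with the slide as a fixed block, and 0 to 1 without a mouse. Between mice, 1 was called with the slide as a random block. The median r between members was -0.21 within S, -0.031 within C, -0.24 within H and -0.036 within Ho.

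Changes of sign concerned differences that were not called. Slitrk2 rostral minus caudal became -0.22 with the slide and -0.044 with the scan day fixed and -0.10 without C1 to C12, and leaving out an array or a mouse gave -0.078 to 0.33 and -0.11 to 0.36. Slitrk6 rostral minus caudal became -0.038 with the slide fixed. Slitrk4 middle minus both ends became 0.0088 with median scaling, 0.0080 with the authors' values, 0.00047 with normexp and quantile normalization, 0.071 with the slide and 0.026 with the scan day fixed, and -0.049 to 0.018 without an array and -0.035 to 0.0047 without a mouse. Midline minus lateral, leaving out an array or a mouse gave -0.11 to 0.012 and -0.14 to 0.048 for Slitrk2, and leaving out an array gave -0.17 to 0.0012 for Slitrk4. Slitrk4 right minus left became 0.0038 paired by own number and -0.17 to 0.0021 and -0.29 to 0.13 without an array or a mouse. With normexp, Slitrk2 minus Slitrk4 right minus left became 0.018 and Slitrk2 minus Slitrk3 ventral minus dorsal 0.035. No fit with a fixed slide was possible for the sagittal comparisons, nor with fixed slide or scan day between mice. The dim probe of Slitrk2 limits its precision.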
